A study of Mus musculus with 12 samples.

Results

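The cytosolic ribosomal protein genes were described in muscle RNA-seq of db/db mice. A gene was a member when its symbol began with Rpl or Rps followed by a digit, or was Rpsa, Rplp0, Rplp1 or Rplp2. Symbols of the Rps6 kinases and symbols with the pseudogene mark -ps were left out. The deposited file holds 22390 features, 90 of which carried such a symbol, and 85 of these reached 1 FPKM (fragments per kilobase of transcript, scaled to library depth) in at least 3 of the 12 libraries. The rule used the symbol and this level, and no difference between groups. The 85 genes were 43 large subunit proteins, 31 small subunit proteins, 3 proteins of the ribosomal stalk, 7 paralogs named for another ribosomal protein, and Rps19bp1, which encodes a protein that binds a ribosomal protein and is not itself a ribosomal subunit. All features passing the same filter numbered 10666.

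All 12 libraries came from muscle of male C57BL/KsJ db/db mice, whose leptin receptor does not work and which grow obese and diabetic. Mice were 8 weeks old at the start and were followed for 8 weeks. The combination group (n = 3) received both interventions. The HIIT group (n = 3) trained on a treadmill on 5 days a week with high-intensity intervals, each session having 10 bouts lasting 4 min, run at 85 to 90% of the top speed and parted by 2 min of recovery. The semaglutide group (n = 3) was injected under the skin each day with this agonist of the GLP-1 receptor, at a dose that the protocol states as 30 nmol/kg and the titles as 0.05 mg/kg, which were not reconciled. The control group (n = 3) was reared normally. No lean or untreated non-diabetic mice were analysed here, so each group carries the leptin receptor defect. The labels name no injection for the HIIT and control mice, so the drug and the act of injecting cannot be told apart. The labels do not say whether each library came from its own mouse, and p-values therefore measure the spread between these libraries, which may be technical.

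A cytosolic ribosome is built from a small subunit that reads the mRNA and a large subunit that joins amino acids, and most of its proteins are made in equal numbers and are needed in every cell. The mRNAs of nearly all ribosomal proteins begin with a run of pyrimidines, the terminal oligopyrimidine or TOP motif, through which mTORC1 and the RNA-binding protein LARP1 control how much they are translated. Ribosome number sets the capacity for protein synthesis in muscle and is known to increase in muscle that grows. Muscle also has a paralog of its own, Rpl3l, which takes the place of Rpl3 in ribosomes of skeletal and heart muscle.

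Sequences around annotated transcription starts are given for genes on which the results turn, to show which of them hold a pyrimidine word near the start. Promoter windows from RefSeq (mouse build GRCm38.p6, 250 bases before to 50 after each start) were matched by symbol to 64 of the 85 genes, in 76 windows. Each line gives 10 bases before to 20 bases from the annotated start on, on the gene's strand, 5′ to 3′. In the first 6 sequences capitals mark any of 3 pyrimidine words, which are CTTTCC, its variant CTCTTT and its variant CTTTTC, and a sequence with no capitals holds none of them in this stretch. In the last pair capitals mark the 19 bases that Rps27 and its near-identical copy Rps27rt share.
Rps6 (chr4:86857348-86857377, minus strand): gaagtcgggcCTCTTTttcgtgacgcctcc
Rpl35 (chr2:39005112-39005141, minus strand): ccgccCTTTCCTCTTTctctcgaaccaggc
Rpl38 (chr11:114668570-114668599, plus strand): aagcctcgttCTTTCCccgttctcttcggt
Rps13 (chr7:116334171-116334200, minus strand): caaacgtcggtgagtggcgtcacttcctgt
Rps27l (chr9:66946076-66946105, plus strand): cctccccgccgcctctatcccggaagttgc
Rpl3l (chr17:24727816-24727845, plus strand): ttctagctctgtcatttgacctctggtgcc
Rps27 (chr3:90213629-90213658, minus strand): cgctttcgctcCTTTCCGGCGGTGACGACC
Rps27rt (chr9:114982720-114982749, minus strand): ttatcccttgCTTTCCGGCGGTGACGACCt

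At least 1 of these 3 pyrimidine words lay on the gene's strand between 30 bases before and 50 bases after the start in 37 of the 76 windows, or 48.7%, against 8.59% of all 32851 windows. The word CCGGAAG, the core of the sites bound by ETS factors, was present on either strand in 34.2% of the member windows and 8.86% of all windows. AAGATGG, a core of the sites bound by YY1, was present on either strand in 15.8% of the member windows and 6.34% of all windows. These are matches of letters and say nothing of binding in these muscles.

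In each library the sum of 10 fast muscle markers was 69880 to 90480 FPKM and that of 6 slow markers 174.5 to 1635 FPKM. By group the slow sum was 174.5 to 844.5 FPKM in combination, 209.6 to 717.9 in HIIT, 344.2 to 1023 in semaglutide and 832.9 to 1635 in control libraries. Its part in the ribosomal protein values was not tested. The labels say muscle, and soleus is among the tissues that the protocol lists as collected. Depth, roughly estimated from the smallest steps of the table, was 17.2 to 21.3 M fragments per library. Combination 2 and combination 3 stood apart from the other libraries: they had 9246 and 9181 features at 1 FPKM or more, against 9692 to 10690 in the other 10 libraries. The median of all features in these libraries, each taken as its deviation from its mean over the 12 libraries, was also the lowest, at -0.13 log2 units in both.

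Ribosomal protein mRNA made up a smaller share of the libraries in combination 2 and combination 3 than in any other. The 85 genes held 2.49, 2.05 and 1.95% of summed FPKM in combination libraries, 2.92, 2.32 and 2.59% in HIIT libraries, 2.7, 2.49 and 2.85% in semaglutide libraries, and 2.33, 2.67 and 2.57% in control libraries. The group means were 2.16 ± 0.290% in combination, 2.61 ± 0.3% in HIIT, 2.68 ± 0.183% in semaglutide and 2.52 ± 0.176% in control libraries (SD, n = 3 each). The first combination library lay inside the range of the control, HIIT and semaglutide libraries, and only the other 2 combination libraries lay below it. In bulk muscle, fewer cells of a type and less RNA per cell cannot be told apart.

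Most of the genes were low or high together from library to library. The median member deviated from its own mean over the 12 libraries by -0.02, -0.30 and -0.38 log2 units in the combination libraries and by 0.24, -0.09 and 0.18 in the HIIT libraries. The same deviation was 0.09, 0.00296 and 0.22 in the semaglutide libraries and -0.06, 0.09 and 0.02 in the control libraries. Counted gene by gene, 50, 80 and 81 of the 85 lay below their own mean in the combination libraries, against 3, 72 and 7 in HIIT, 17, 42 and 7 in semaglutide and 66, 15 and 37 in control libraries. HIIT 2 and control 1 thus had most members low within groups whose other libraries did not. Combination 2 and 3 were the lowest pair of the 12 libraries for 64 of the 85 genes (75.3%), against 18.6% of all features.

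**Figure D1:**
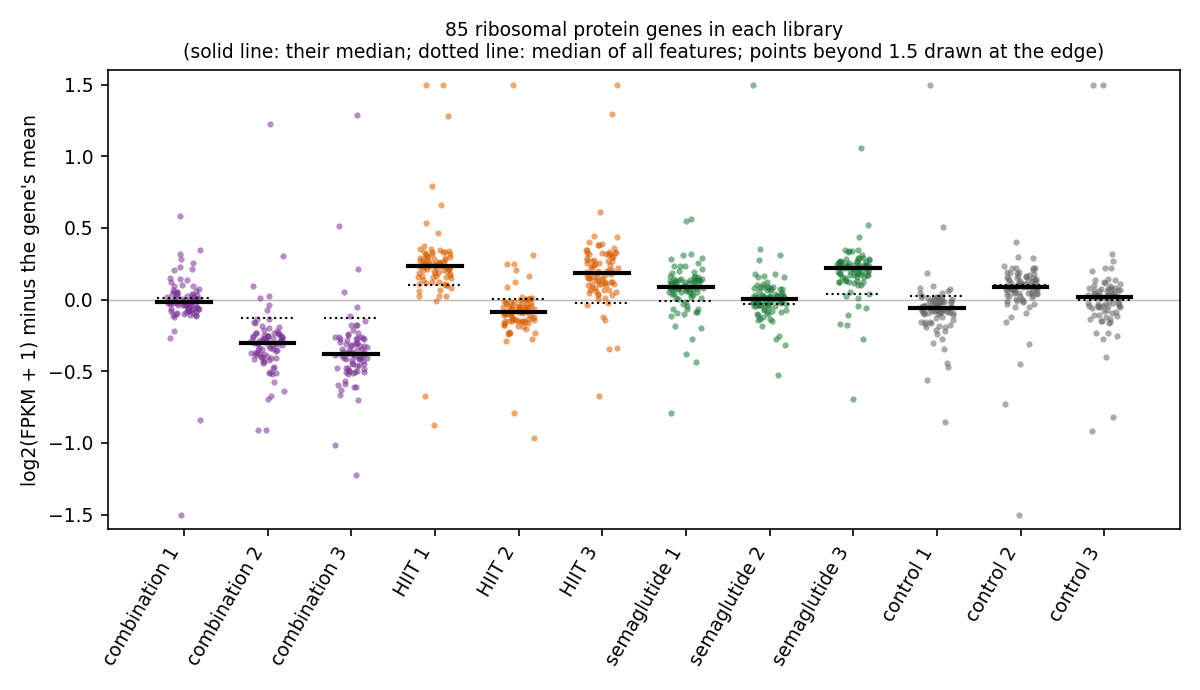
Deviation of each of the 85 ribosomal protein genes from its own mean over 12 libraries, in log2(FPKM + 1) units, with 1 column of points per library, combination libraries first and control libraries last. Combination 2 and 3 hold 80 and 81 genes below 0, whereas combination 1 holds 50 and HIIT 1 holds 3.

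Against control libraries the combination group had lower values for most ribosomal protein genes, but no single gene passed the test. The median member differed by -0.25 on the log2(FPKM + 1) scale, where the median of all 10666 features differed by -0.13, and 79 of 85 members were below 0 against 70.9% of all features. With limma and Benjamini-Hochberg adjustment over all features, 0 of 85 were called at an adjusted p under 0.05, where 6.26% of all features were called. At an unadjusted p under 0.05, 24 members (28.2%) were lower and none was higher, against 21.6% of all features lower. In 20 members (23.5%) every combination library was below every control library, against 23% of all features, a share close to the background. The large and small subunits had medians of -0.25 each, the 3 stalk proteins -0.30 and the 7 paralogs -0.04.

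The differences of the combination group from either single intervention were larger. Against HIIT the median member differed by -0.33 (all features -0.12), 83 of 85 were below 0 against 67.6% of all features, and 2 members were called lower, Rps13 and Rps27l, or 2.35% against 1.96% of all features called lower. At an unadjusted p under 0.05, 54 members (63.5%) were lower, against 20.4% of all features. Against semaglutide the median member differed by -0.33 (all features -0.07) and 84 of 85 were below 0 against 65.4% of all features. No member was called by limma with Benjamini-Hochberg adjustment in that comparison, where 0.00938% of all features were called, and 51 members (60%) were lower at an unadjusted p under 0.05, against 10.3% of all features. In 42 of 85 members (49.4%) every combination library was below every semaglutide library, against 12.4% of all features, while against HIIT this held for 17 (20%), against 18.7% of all features. Between combination and HIIT the correlation of deviations was over 0.1 in every pair of libraries with the same replicate number. Libraries with unlike numbers correlated as much elsewhere, at 0.32, 0.18 and 0.31 for combination 1, 2 and 3 with control 2, 3 and 1. Whether the numbers mark a real pairing is therefore not known. In the 3 pairs of combination and HIIT with the same number, 70 members (82.4%) were always below HIIT, against 40.1% of all features. With the number as a block in a fit to these 6 libraries alone, an alternative chosen after seeing the data, limma called 7 members lower (8.24%, against 5.96% of all features), which were Rpl14, Rps13, Rps10, Rpl26, Rpl27a, Rpl28 and Rpl35a, at -0.45 to -0.53 log2 units. Rps27l then had an adjusted p = 0.0557 by limma, and without the block that fit called 0 members. These comparisons share the 3 combination libraries and are not independent of each other.

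How much the combination group was lower depended on 2 of its 3 libraries. Without combination 2 and 3, an alternative chosen after seeing the data, the median member differed by -0.030 from control, by -0.14 from HIIT and by -0.12 from semaglutide libraries. The combination arm then holds 1 library, assumed to vary like the other groups, and limma called 0 of all features in these 3 comparisons, so that its 0 calls among the members say nothing about them. In the remaining library, combination 1, 50 members (58.8%) lay below the control mean, against 55.3% of all features. There 72 (84.7%) lay below the HIIT mean, against 55% of all features, and 67 (78.8%) lay below the semaglutide mean, against 48.1% of all features. Leaving out combination 1 instead keeps the 2 libraries already seen to be lowest for most members, so calls in that fit are no separate support. In that fit limma called 22 members against control (25.9%, against 15.4% of all features). Against HIIT it called 45 (52.9%, against 14.8%) and against semaglutide 24 (28.2%, against 5.22%). All of these members were lower in combination, while the shares of all features count both directions. The test of any difference among the 4 groups then called 20 members (23.5%, against 15.7%).

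The scale of the table moved the comparison with control more than the others. The median member minus the median of all features was -0.13 between combination and control on the deposited scale, -0.10 after TMM rescaling, -0.12 after scaling to the sum of nuclear genes and -0.13 after centring each library on its median. The number of members below 0 was 79, 68, 79 and 62 on these 4 scales. Against HIIT the median relative to all features was -0.19 to -0.21 on the same scales and against semaglutide -0.24 to -0.26, with at least 81 members below 0 in both comparisons. Rescaling a library moves members and all features nearly alike, so this relative median could hardly change. Under centring it is necessarily the same. The member median itself moved. In the order above it was -0.25, -0.11, -0.23 and -0.075 against control. It was -0.33, -0.22, -0.30 and -0.20 against HIIT, and -0.33, -0.24, -0.33 and -0.24 against semaglutide.

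**Figure D2:**
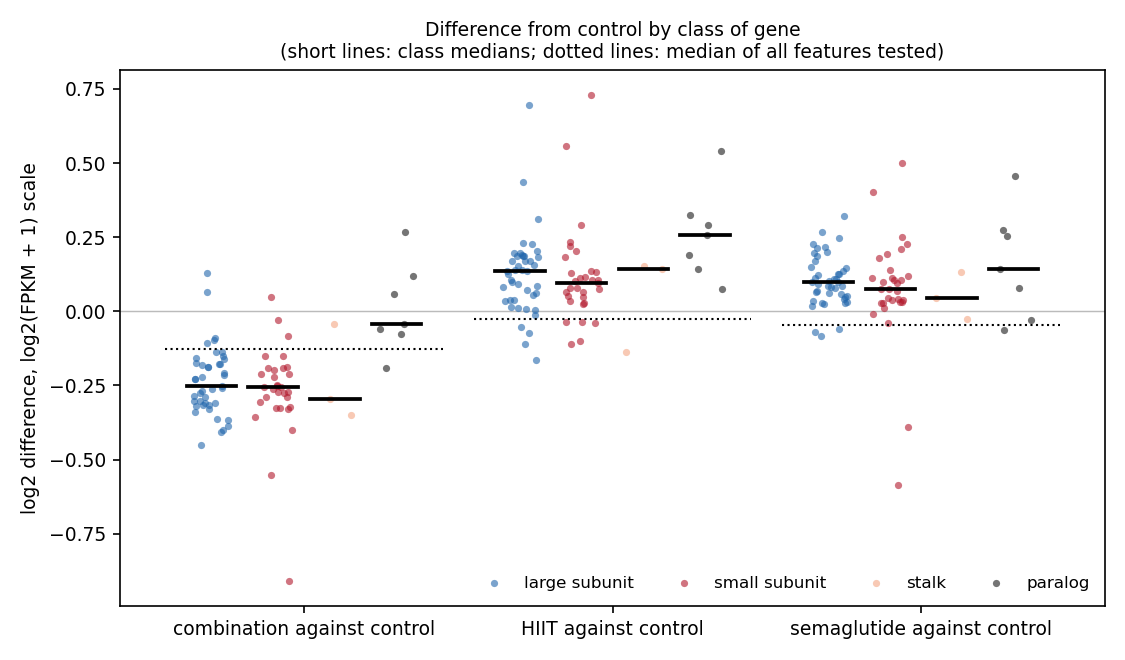
Log2 difference in FPKM + 1 of ribosomal protein genes from control libraries in the combination, HIIT and semaglutide groups, by class of protein, with 84 of the 85 genes drawn (Rps19bp1, a class of its own, is not drawn), short lines at class medians and dotted lines at the median of all features. The large subunit genes sit around -0.25 in combination, 0.14 in HIIT and 0.10 in semaglutide libraries.

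Rps13, a small subunit protein, had 141, 124 and 122 FPKM in combination libraries, 193, 159 and 199 in HIIT, 188, 161 and 201 in semaglutide, and 176, 176 and 159 in control libraries. All 3 combination libraries were below the other 9. Rps13 was lower in combination than in HIIT by -0.51 ± 0.11 log2 units (SE, limma, Benjamini-Hochberg adjusted p = 0.042) and was the only member past the test of any difference among the 4 groups (limma F test, adjusted p = 0.0468, 1 of 85 members, against 6.11% of all features). That F test gave 0 calls without any one of 9 of the 12 libraries. Its differences of -0.40 ± 0.11 from control and of -0.50 ± 0.11 from semaglutide did not pass (limma, adjusted p = 0.061 and adjusted p = 0.28). The call against HIIT held in 3 of the 12 fits that left out 1 library, with limma adjusted p between 0.0177 and 0.155.

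Rps27l, a paralog of Rps27 that is known in other settings as a target of p53, had 62.5, 55.4 and 53.4 FPKM in combination libraries and 72.5, 83.8 and 84.4 in HIIT libraries. It had 65.1, 68.1 and 73.7 FPKM in semaglutide libraries, and 64.3, 71.1 and 60.5 in control libraries. The combination and HIIT libraries did not overlap, the HIIT libraries included the highest 2 of the 12, and combination 1 lay within the control range. Rps27l fell by 0.48 ± 0.10 log2 units in combination relative to HIIT (SE, limma, Benjamini-Hochberg adjusted p = 0.0305). Between HIIT and control its difference was 0.29 ± 0.10 (limma, unadjusted p = 0.0117, adjusted p = 0.437), and between combination and control -0.19 ± 0.10 (adjusted p = 0.241). The call held in 8 of the 12 fits that left out 1 library and was lost without combination 2, combination 3, HIIT 2 or HIIT 3.

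The most abundant members on the per-length FPKM scale were Rps24, Rplp0, Rpl4, Rplp1 and Rps14, and the mean level over the 12 libraries spanned 444 FPKM for Rps24 to 3.10 FPKM for Rpl21. Rps24, a small subunit protein mutated in some patients with Diamond-Blackfan anaemia, had 430, 347 and 338 FPKM in combination libraries, 518, 422 and 532 in HIIT, 456, 418 and 478 in semaglutide, and 436, 475 and 478 in control libraries. The low pair of combination libraries was again lowest, and combination 1 lay between HIIT 2 and control 1. The difference of Rps24 from control was -0.32 ± 0.12 log2 units (limma, adjusted p = 0.12).

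The 3 stalk genes encode the flexible arm of the large subunit to which elongation factors bind. Rplp0, the base of the arm, had 410, 342 and 326 FPKM in combination libraries, 454, 373 and 420 in HIIT, 458, 402 and 487 in semaglutide, and 419, 464 and 486 in control libraries. Its combination libraries were all below its control libraries, with a difference of -0.35 ± 0.12 log2 units (SE, limma, adjusted p = 0.098). Rplp1 had 376, 295 and 269 FPKM in combination libraries, 443, 362 and 465 in HIIT, 396, 383 and 401 in semaglutide, and 362, 397 and 384 in control libraries. For Rplp1 the first combination library lay inside the control range, and the difference was -0.30 ± 0.13 (limma, adjusted p = 0.173). Rplp2, the partner of Rplp1 in the arm, had 81.2, 68.3 and 69.1 FPKM in combination libraries, 98.6, 73.4 and 79.7 in HIIT, 82.4, 77.6 and 86.9 in semaglutide, and 72.9, 78.4 and 73.5 in control libraries. The combination libraries of Rplp2 lay on both sides of the control range, and its difference was -0.04 ± 0.11 (limma, adjusted p = 0.84), with a sign that turned positive under TMM rescaling and median centring.

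Rpl4, a large subunit protein that lines the exit tunnel of the growing chain, had 415, 395 and 345 FPKM in combination libraries, 437, 393 and 377 in HIIT, 464, 425 and 496 in semaglutide, and 394, 441 and 434 in control libraries. These groups overlapped except for combination and semaglutide. The difference from control was -0.14 ± 0.10 log2 units (limma, adjusted p = 0.408) and turned positive under TMM rescaling and median centring. Rps14, a small subunit protein whose loss in people marks a form of myelodysplasia, had 347, 299 and 309 FPKM in combination libraries, 476, 374 and 390 in HIIT, 428, 452 and 384 in semaglutide, and 332, 366 and 362 in control libraries. Every HIIT and semaglutide library was above every control library, and combination 1 was inside the control range. Its difference between combination and semaglutide was -0.40 ± 0.11 (limma, adjusted p = 0.28), and between semaglutide and control 0.25 ± 0.11 (unadjusted p = 0.0414, adjusted p = 0.241).

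Among other small subunit genes, Rps6, whose protein is the best known substrate of the S6 kinases, had 217, 182 and 172 FPKM in combination libraries, 258, 196 and 255 in HIIT, 234, 215 and 262 in semaglutide, and 214, 243 and 231 in control libraries. Its lowest 2 of the 12 libraries were combination 2 and 3, and the difference of Rps6 from control was -0.27 ± 0.13 log2 units (limma, adjusted p = 0.206). Rps4x, the X-linked form of a small subunit protein, had 274, 234 and 205 FPKM in combination libraries, 342, 268 and 326 in HIIT, 312, 271 and 333 in semaglutide, and 287, 311 and 292 in control libraries. Its combination and control libraries did not overlap, with a difference of -0.33 ± 0.13 (limma, adjusted p = 0.136). Rpsa, which encodes a small subunit protein also described as a laminin receptor, had 44.0, 27.5 and 23.9 FPKM in combination libraries, 36.4, 30.9 and 40.9 in HIIT, 42.5, 39.0 and 44.7 in semaglutide, and 36.4, 38.0 and 42.3 in control libraries. For Rpsa the first combination library was above all 3 control libraries while the other 2 were the lowest of the 12, and the difference was -0.33 ± 0.18 (limma, adjusted p = 0.284).

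Rps10 and Rps18, both in the head of the small subunit, had the most negative differences from control together with a wide spread. Rps10 had 110, 55.1 and 55.5 FPKM in combination libraries, 150, 71.3 and 92.6 in HIIT, 75.1, 76.0 and 82.7 in semaglutide, and 123, 80.9 and 108 in control libraries. Both low combination libraries were again lowest, but HIIT 1 was far above HIIT 2, and the difference from control was -0.55 ± 0.30 log2 units (limma, adjusted p = 0.278). Rps18 differed by -0.91 ± 0.69 (limma, adjusted p = 0.433). Its values are given with those of its copy, with which it may share reads.

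In the large subunit, Rpl14 had 137, 98.7 and 99.7 FPKM in combination libraries, 177, 139 and 166 in HIIT, 151, 146 and 170 in semaglutide, and 143, 153 and 145 in control libraries. All 3 combination libraries were below the other 9. The differences of Rpl14 were -0.41 ± 0.13 log2 units from control, -0.53 ± 0.13 from HIIT and -0.49 ± 0.13 from semaglutide (limma, adjusted p = 0.0899, adjusted p = 0.055 and adjusted p = 0.28), so none passed. Rpl12, a protein at the base of the stalk, had 137, 91.6 and 85.4 FPKM in combination libraries, 134, 108 and 135 in HIIT, 152, 133 and 154 in semaglutide, and 122, 147 and 154 in control libraries. Combination 1 lay inside the control range, the other 2 were the lowest of the 12, and the difference of Rpl12 from control was -0.45 ± 0.17 (limma, adjusted p = 0.125).

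Rpl10, a large subunit protein added late in assembly, had 319, 273 and 254 FPKM in combination libraries, 380, 325 and 342 in HIIT, 353, 333 and 384 in semaglutide, and 298, 361 and 331 in control libraries. Its combination 1 library was again inside the control range, and the difference was -0.23 ± 0.11 log2 units (limma, adjusted p = 0.218). Rpl35 was picked as the member whose difference between combination and control was nearest to the median of the members. It had 113, 84.8 and 87.7 FPKM in combination libraries, 137, 102 and 145 in HIIT, 120, 117 and 139 in semaglutide, and 108, 120 and 110 in control libraries. The same 2 libraries were low and the difference was -0.25 ± 0.14 (limma, adjusted p = 0.293).

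Of the 43 large subunit genes 2, Rpl18 and Rpl38, were above control in the combination group. Rpl18 had 163, 132 and 122 FPKM in combination libraries, 186, 148 and 181 in HIIT, 180, 166 and 130 in semaglutide, and 139, 118 and 121 in control libraries. Every HIIT library of Rpl18 was above every control library, and the combination and semaglutide libraries each overlapped control. The difference was 0.13 ± 0.15 log2 units in combination (limma, adjusted p = 0.606), 0.44 ± 0.15 in HIIT (unadjusted p = 0.0121, adjusted p = 0.437) and 0.32 ± 0.15 in semaglutide (adjusted p = 0.264). Rpl38, known from mice with skeletal patterning defects, had 63.8, 45.7 and 39.9 FPKM in combination libraries, 56.8, 50.2 and 68.6 in HIIT, 52.5, 49.7 and 65.8 in semaglutide, and 42.9, 47.9 and 49.4 in control libraries. Its combination libraries included the lowest of the 12, combination 3, and one of the highest, with a difference of 0.06 ± 0.17 (limma, adjusted p = 0.843) that became -0.12 without combination 1.

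HIIT and semaglutide each had most ribosomal protein genes slightly above control, with no gene past the test. Between HIIT and control the median member differed by 0.11 log2 units (all features -0.03) and 74 of 85 were above 0, against 44.1% of all features. The limma test with Benjamini-Hochberg adjustment called 0 members and 0% of all features in that comparison. At an unadjusted p under 0.05 it gave 4 members (4.71%), all higher, against 3.29% of all features higher: Rpl17, Rpl18, Rpl36al and Rps27l. Every HIIT library was above every control library in 6 members (7.06%), against 4.37% of all features. Between semaglutide and control the median was 0.09 (all features -0.05), and 74 of 85 were again above 0, against 41.5% of all features. No member was called by limma, where 3.72% of all features were, and 2 members (2.35%), Rpl18 and Rps14, were higher at an unadjusted p under 0.05, against 6.62% of all features higher. In 9 members (10.6%) every semaglutide library was above every control library, against 10.8% of all features. Both comparisons use the same 3 control libraries.

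Rpl17, a large subunit protein at the tunnel exit, had 21.5, 15.5 and 14.4 FPKM in combination libraries, 33.0, 21.0 and 56.7 in HIIT, 19.7, 21.8 and 22.9 in semaglutide, and 19.3, 24.4 and 18.7 in control libraries. HIIT 3 stood well above the rest, HIIT 1 was next, and HIIT 2 lay inside the control range. The difference between HIIT and control was 0.69 ± 0.28 log2 units (limma, unadjusted p = 0.0324, adjusted p = 0.502) and between combination and HIIT -0.97 ± 0.28 (limma, adjusted p = 0.075). Rpl36al, a paralog of Rpl36a, had 82.9, 72.8 and 92.6 FPKM in combination libraries, 110, 106 and 96.3 in HIIT, 85.2, 84.0 and 86.7 in semaglutide, and 86.3, 91.3 and 83.7 in control libraries. All 3 HIIT libraries of Rpl36al were above the other 9. The difference between HIIT and control was 0.26 ± 0.09 (limma, unadjusted p = 0.0198, adjusted p = 0.444), and that between combination and HIIT -0.33 ± 0.09 (limma, adjusted p = 0.0694).

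Semaglutide and HIIT libraries were close for these genes, with a median difference of -0.02 log2 units (all features -0.03), 47 members below 0 (against 55.1% of all features) and 38 above. The limma test with Benjamini-Hochberg adjustment called 0 members, against 4.59% of all features. At an unadjusted p under 0.05 it gave 3 members (3.53%), all lower in semaglutide, against 13.4% of all features lower. These were Rpl36al, Rpl17 and Rps19bp1, at -0.28 ± 0.09, -0.64 ± 0.28 and -0.24 ± 0.11 (limma, unadjusted p = 0.0114, unadjusted p = 0.0444 and unadjusted p = 0.045).

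The interaction asks whether the difference of the combination group from control departs from the sum of those of HIIT and semaglutide alone. It was negative for 84 of the 85 genes, against 60.4% of all features, with a median of -0.45 log2 units (all features -0.06). No member and 0% of all features were called by limma with Benjamini-Hochberg adjustment. At an unadjusted p under 0.05, 46 members (54.1%) were negative, against 5.06% of all features. All 43 large subunit genes and all 31 small subunit genes had a negative interaction, with medians of -0.47 and -0.43, and 6 of the 7 paralogs did. Relative to all features the median was -0.38 on the deposited scale, necessarily the same after centring, and -0.37 after TMM rescaling. The median itself was -0.40 after centring and -0.38 after TMM rescaling. Without combination 2 and 3 it was -0.23 over the members.

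Rps14, Rps27l and Rps13 had interactions of -0.62 ± 0.15, -0.56 ± 0.14 and -0.61 ± 0.16 log2 units (SE, limma), each with an adjusted p = 0.632. The 5 most negative were Rps27a, Rps18, Rpl17, Rps27rt and Rps12. Rps27a, which encodes ubiquitin fused to a small subunit protein, had 66.3, 43.0 and 40.2 FPKM in combination libraries, 158, 54.6 and 67.7 in HIIT, 60.1, 51.7 and 135 in semaglutide, and 59.8, 62.0 and 48.6 in control libraries. HIIT 1 and semaglutide 3 alone were above 100 FPKM, and the interaction of Rps27a was -1.17 ± 0.60 (limma, adjusted p = 0.649). Rps12, a small subunit protein known in flies for a part in cell competition, had 86.9, 55.9 and 55.3 FPKM in combination libraries, 103, 71.0 and 101 in HIIT, 89.1, 78.5 and 101 in semaglutide, and 57.2, 90.7 and 87.6 in control libraries. Control 1 was nearly as low as combination 2 and 3, and the interaction was -0.69 ± 0.32.

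At the other end, Rpl3l alone had a positive interaction, at 0.11 ± 0.12 log2 units (limma, adjusted p = 0.828). Rps28 followed with -0.01 ± 0.24, a value whose sign turned under TMM rescaling and median centring, and then Rps10 with -0.12 ± 0.43, Rps19bp1 with -0.13 ± 0.15 and Rps9 with -0.18 ± 0.14. Rps28 had 69.5, 49.5 and 54.5 FPKM in combination libraries, 73.8, 52.9 and 46.5 in HIIT, 55.4, 59.2 and 72.4 in semaglutide, and 57.4, 61.5 and 63.5 in control libraries. All 4 groups overlapped for Rps28. Rps9, a small subunit protein known from yeast mutants to affect decoding accuracy, had 217, 192 and 197 FPKM in combination libraries, 260, 196 and 223 in HIIT, 240, 224 and 241 in semaglutide, and 230, 236 and 225 in control libraries, with every combination library below every control library.

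Rpl3l, the muscle paralog, was much more abundant than Rpl3 in every library and did not follow the other members. It had 215, 215 and 246 FPKM in combination libraries, 221, 225 and 208 in HIIT, 202, 205 and 187 in semaglutide, and 219, 190 and 213 in control libraries. Every combination and every HIIT library was above every semaglutide library, and the other pairs of groups overlapped. Its pooled SD within groups, 0.0893 log2 units, was the smallest of the 85 genes, whose median was 0.163. The difference of Rpl3l from control was 0.12 ± 0.09 in combination (limma, adjusted p = 0.416), and that from semaglutide 0.18 ± 0.09 (limma, adjusted p = 0.437). Rpl3, which helps to form the peptidyl transferase centre, had 19.6, 14.2 and 13.1 FPKM in combination libraries, 30.1, 16.1 and 22.1 in HIIT, 15.3, 16.8 and 23.8 in semaglutide, and 18.7, 23.1 and 17.1 in control libraries. Combination 2 and 3 were lowest for Rpl3, with a difference from control of -0.32 ± 0.23 (limma, adjusted p = 0.411).

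Within a library Rpl3l was 10.9-, 15.1- and 18.8-fold above Rpl3 in combination, 7.34-, 14.0- and 9.43-fold in HIIT, 13.2-, 12.2- and 7.86-fold in semaglutide, and 11.7-, 8.23- and 12.4-fold in control libraries. The 2 highest ratios were those of combination 2 and 3, and combination 1 lay inside the control range. The log2 ratio was 0.46 higher in combination than in control (exact two-sided permutation p = 0.3, Benjamini-Hochberg 0.789), 0.56 higher than in HIIT (exact permutation p = 0.2) and 0.43 higher than in semaglutide (exact permutation p = 0.3). With 3 against 3 libraries the smallest possible p is 0.1, so this design could not reach 0.05.

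**Figure D3:**
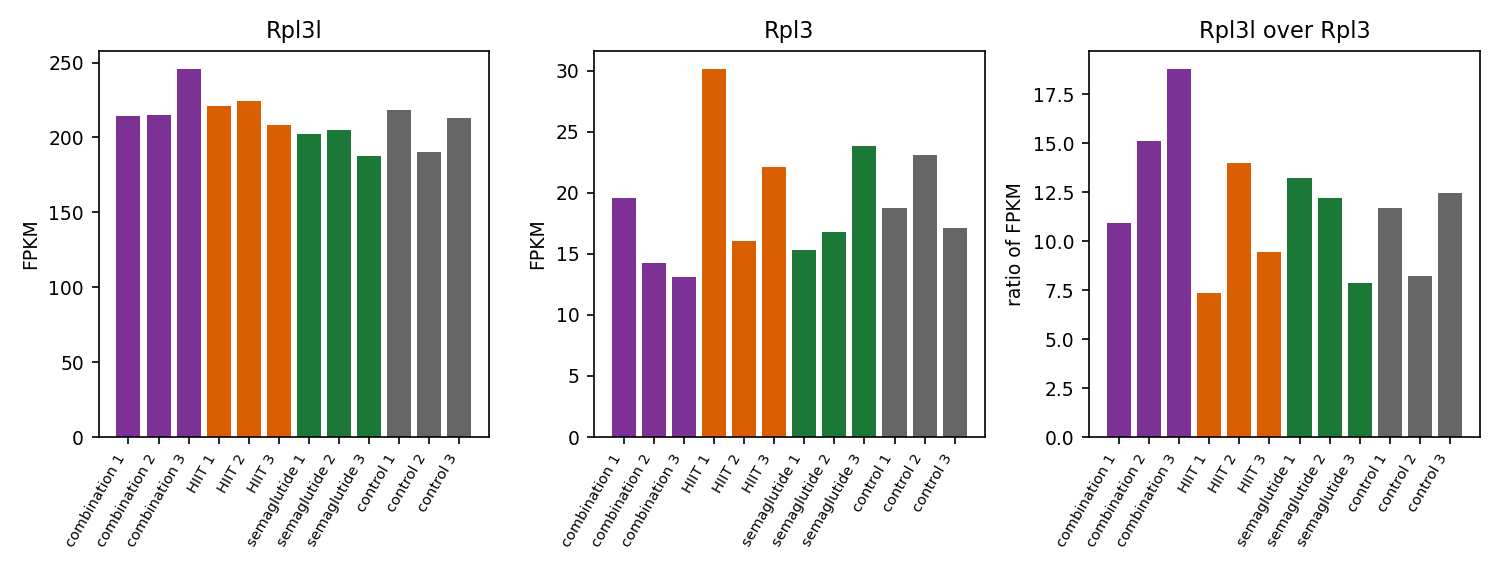
Levels of Rpl3l and Rpl3 in FPKM in each library and the ratio of Rpl3l to Rpl3, with combination libraries at the left and control libraries at the right. The ratio reaches 15.1 and 18.8 in combination 2 and 3 and lies between 7.34 and 14.0 in the other 10 libraries.

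The other paralog pairs gave no difference past a test. In all, 5 pairs were compared in 6 pairs of groups, 30 exact permutation tests in which the smallest Benjamini-Hochberg value was 0.789. Rpl22l1, a paralog of Rpl22 known to be repressed by it in mouse cells, had 95.6, 64.6 and 72.7 FPKM in combination libraries, 98.4, 75.2 and 106 in HIIT, 92.2, 76.7 and 99.8 in semaglutide, and 60.4, 82.1 and 79.9 in control libraries. Rpl22 itself had 93.4, 89.5 and 45.04 FPKM in combination libraries, 112, 106 and 120 in HIIT, 67.6, 97.5 and 117 in semaglutide, and 104, 107 and 78.2 in control libraries. Neither gene of the pair was the higher in all libraries, and the log2 ratio of Rpl22l1 to Rpl22 was 0.47 higher in combination than in control (exact permutation p = 0.4).

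The log2 ratio of Rpl36al to Rpl36a was 0.24 higher in combination than in control (exact permutation p = 0.3), and that of Rpl7l1 to Rpl7 was 0.26 higher (exact permutation p = 0.2). Rpl36a had 65.0, 57.5 and 47.9 FPKM in combination libraries and 65.3, 76.5 and 69.6 in control libraries, which did not overlap. Rpl7, a large subunit protein, had 234, 194 and 182 FPKM in combination libraries and 235, 258 and 258 in control libraries, also without overlap. Rpl7l1, which is related to a yeast factor of large subunit assembly, was far less abundant at 9.30 to 12.1 FPKM over the 12 libraries. The log2 ratio of Rps27l to Rps27 was -0.16 in combination relative to control (exact permutation p = 0.8), but the level of Rps27 may depend on how reads were split with its copy. Rpl39, the large subunit protein at the tunnel exit that has a paralog in testis, had 46.3, 34.7 and 38.2 FPKM in combination libraries and 39.8, 46.6 and 46.2 in control libraries, and differed by -0.16 ± 0.15 (limma, adjusted p = 0.54), a sign that turned under median centring.

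Several members have copies so alike that the deposited FPKM can split reads between them, and 60 of the 85 genes have at least 1 named pseudogene in the GENCODE M21 annotation. Over the best local alignment of their transcripts, Rps27rt was 100% identical to Rps27 over 341 bases, Rps18-ps6 99.08% identical to Rps18 over 545 bases, and Rpl35rt 99.55% identical to Rpl35 over 445 bases. Rpl3l, in contrast, was 75.3% identical to Rpl3 over 1200 bases. In the first of these pairs the copy varied more between libraries than the sum. Rps27rt had 7.43, 71.6 and 43.2 FPKM in combination libraries, 108, 17.0 and 23.5 in HIIT, 44.9, 24.6 and 33.0 in semaglutide, and 16.2, 8.39 and 95.2 in control libraries.

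Rps27 had 192, 78.7 and 95.2 FPKM in combination libraries, 69.3, 143 and 195 in HIIT, 150, 158 and 183 in semaglutide, and 134, 169 and 67.2 in control libraries. The libraries in which Rps27 was low, such as HIIT 1 and control 3, were those in which Rps27rt was high. Across the 12 libraries the copy spanned 14.5-fold and Rps27 2.91-fold, whereas their sum spanned 1.58-fold, between 138 and 219 FPKM. The difference of Rps27rt between combination and control, 0.27 ± 1.01 log2 units (limma, adjusted p = 0.889), and its interaction, -0.73 ± 1.43, are therefore uncertain. Summed with its copy, Rps27 differed between combination and control by -0.02 ± 0.15 (limma, adjusted p = 0.937).

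Rps18 had 34.7, 26.0 and 17.4 FPKM in combination libraries, 157, 125 and 25.9 in HIIT, 31.9, 28.8 and 34.5 in semaglutide, and 28.0, 30.5 and 128 in control libraries. HIIT 1, HIIT 2 and control 3 were the 3 high libraries. Its pseudogene Rps18-ps6, which is no member, had 139, 123 and 122 FPKM in combination libraries, 92.8, 73.7 and 162 in HIIT, 174, 155 and 184 in semaglutide, and 146, 158 and 75.6 in control libraries. The pseudogene held 37.1 to 37.2% of the summed level in the 3 libraries where Rps18 was high, and 80.05 to 87.5% in the other 9. Summed with the pseudogene, an alternative chosen after seeing the data, Rps18 differed between combination and control by -0.29 ± 0.13 (limma, adjusted p = 0.17) and between combination and HIIT by -0.46 ± 0.13 (adjusted p = 0.0662), in place of -0.91 ± 0.69 and -1.64 ± 0.69.

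**Figure D4:**
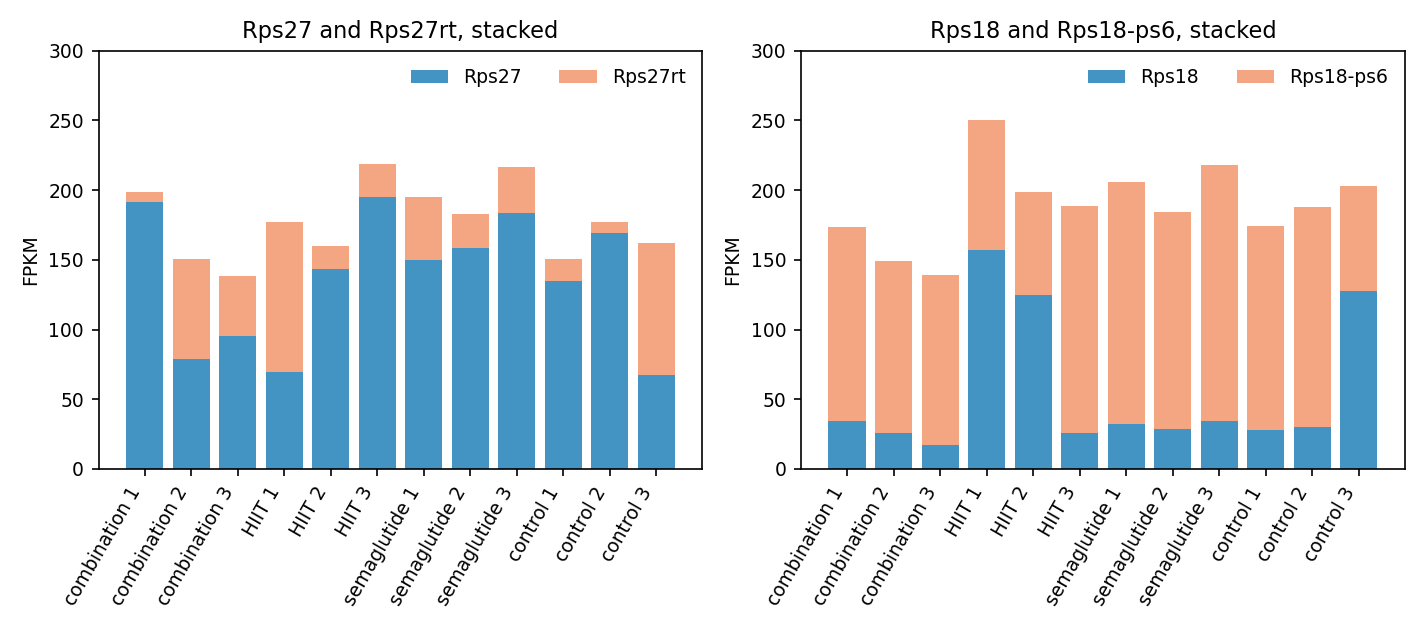
FPKM in each library of Rps27 stacked with its copy Rps27rt, and of Rps18 stacked with its pseudogene Rps18-ps6, combination libraries first and control libraries last. The parts trade places between libraries, and the sums span 1.58-fold for the first pair and 1.797-fold for the second.

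Other members were also unsteady, and whether shared reads had a part in it was not tested. The pooled SD within groups was over 0.3 log2 units in 11 members: Rps27rt, Rpl21, Rps18, Rps27, Rps27a, Rps10, Rpl17, Rpl22, Rpl41, Rpl3 and Rps12. Of these Rps12 has 24 named pseudogenes, Rpl21 has 15 and Rpl17 has 11, and Rps13, one of the 2 called members, has 7. Rpl21, the weakest member, was either at 6.14 to 8.98 FPKM, in combination 3, HIIT 3, semaglutide 2 and control 1, or at 0.495 to 0.834 FPKM in the other 8 libraries. Rpl35rt had 6.15 to 10.8 FPKM over the 12 libraries, and its sum with Rpl35 spanned 1.70-fold, much as Rpl35 itself, at 1.71-fold.

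Rps19bp1, whose product binds Rps19 and the deacetylase SIRT1, had 5.14, 3.99 and 4.12 FPKM in combination libraries, 5.25, 5.67 and 6.63 in HIIT, 4.85, 4.76 and 4.70 in semaglutide, and 5.40, 6.16 and 5.42 in control libraries. Every combination and semaglutide library was below every control library. The difference of Rps19bp1 from control was -0.30 ± 0.11 log2 units in combination (limma, adjusted p = 0.112). Of the 5 genes below the level filter, Rps4l reached 1 FPKM in 2 libraries with a maximum of 1.67 FPKM, and Rps23rg1, Rpl27rt and Rpl39l had maxima of 0.504, 0.113 and 0.184 FPKM. Rpl10l, a paralog of Rpl10 known from testis, was listed at 0 in all 12 libraries.

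Fau and Rack1, ribosomal components whose symbols lie outside the rule, were measured beside the members. Fau, a ubiquitin-like protein fused to a small subunit protein, had 144, 104 and 92.3 FPKM in combination libraries, 164, 127 and 145 in HIIT, 136, 134 and 154 in semaglutide, and 121, 149 and 126 in control libraries. Rack1, the scaffold protein on the small subunit, had 206, 177 and 160 FPKM in combination libraries, 226, 195 and 212 in HIIT, 243, 216 and 254 in semaglutide, and 203, 211 and 203 in control libraries. Both genes had their lowest values of the 12 libraries in combination 2 and 3.

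Other parts of the translation machinery had medians nearer to 0 than the members in the combination group. All features had medians of -0.13, -0.12 and -0.07 against control, HIIT and semaglutide. Lists near 0 against control or HIIT therefore lay above the median of all features. The 10 elongation and termination factors had medians of 0.03, 0.03 and -0.05 against control, HIIT and semaglutide, with 0 called by limma and 1, 4 and 2 at an unadjusted p under 0.05 in either direction, where 25.9%, 27.1% and 12.1% of all features were. Against HIIT 2 of these were higher and 2 lower, where 6.7% and 20.4% of all features were. Against semaglutide 1 was higher and 1 lower, where 1.78% and 10.3% were. A median near 0 therefore does not mean that each factor was unchanged. The 29 initiation factors had 0.11, 0.08 and -0.05. Of them 1 was called, Eif3a, which was 0.46 ± 0.11 log2 units higher in combination than in HIIT (limma, adjusted p = 0.0471), where 1.05% of all features were called higher. The list of 20 other TOP mRNAs, which overlaps the elongation factors, had -0.04, -0.10 and -0.14, with 0 called by limma and 2, 8 and 5 at an unadjusted p under 0.05, against the same shares of all features. The 78 mitochondrial ribosomal proteins had 0.01, -0.13 and -0.06. Among these, against control, limma called Mrpl50 higher and Mrpl48 lower, at 0.30 ± 0.07 (adjusted p = 0.0341) and -0.49 ± 0.10 (adjusted p = 0.0298), where 6.26% of all features were called. None of these lists was compared with the members by a test.

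Eif4ebp1, the translational repressor that mTORC1 phosphorylates, had 36.2, 31.5 and 29.9 FPKM in combination libraries, 21.6, 19.4 and 21.5 in HIIT, 42.9, 32.6 and 39.6 in semaglutide, and 17.5, 20.8 and 19.9 in control libraries. All 6 libraries with semaglutide were above the 6 without it. Eif4ebp1 rose by 0.72 ± 0.11 log2 units in combination and by 0.94 ± 0.11 in semaglutide relative to control (limma, adjusted p = 0.0175 and adjusted p = 0.00478). The mTORC1 and translational control list of 23 genes had medians of 0.11, 0.16 and -0.08 for combination against control, HIIT and semaglutide. In that list 1 gene was called higher against control (Eif4ebp1) and 2 against HIIT (Eif4ebp1 and Ppp1r15a), where 1.09% and 1.05% of all features were called higher. Against semaglutide 0 were called, where 0.00938% of all features were, and 1 was lower at an unadjusted p under 0.05, against 10.3% of all features.

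Of 39 ribosome biogenesis genes, 3 rose in semaglutide relative to control by limma, where 1.13% of all features were called higher. These were Pes1, Rrs1 and Tsr1, factors of subunit assembly, and the list median was 0.22. In combination the list median was -0.02 against control, -0.01 against HIIT and -0.18 against semaglutide. In this list 1 gene, Rrs1, was called higher against both control and HIIT, where 1.09% and 1.05% of all features were. Rrs1 had 9.07, 7.38 and 8.05 FPKM in combination libraries, 5.34, 4.21 and 4.95 in HIIT, 9.69, 7.30 and 7.74 in semaglutide, and 5.83, 5.66 and 5.21 in control libraries. It was 0.48 ± 0.10 log2 units higher in combination than in control (limma, adjusted p = 0.041). Among lists unrelated to the cytosolic ribosome, 80 nuclear genes of the respiratory chain had medians of 0.00323, -0.20 and -0.06 for combination against control, HIIT and semaglutide, and 38 proteasome subunits had 0.07, 0.000126 and -0.07. Of these limma called 1, the respiratory chain gene Ndufa4l2, which was lower in combination than in HIIT, where 1.96% of all features were called lower.

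**Figure D5:**
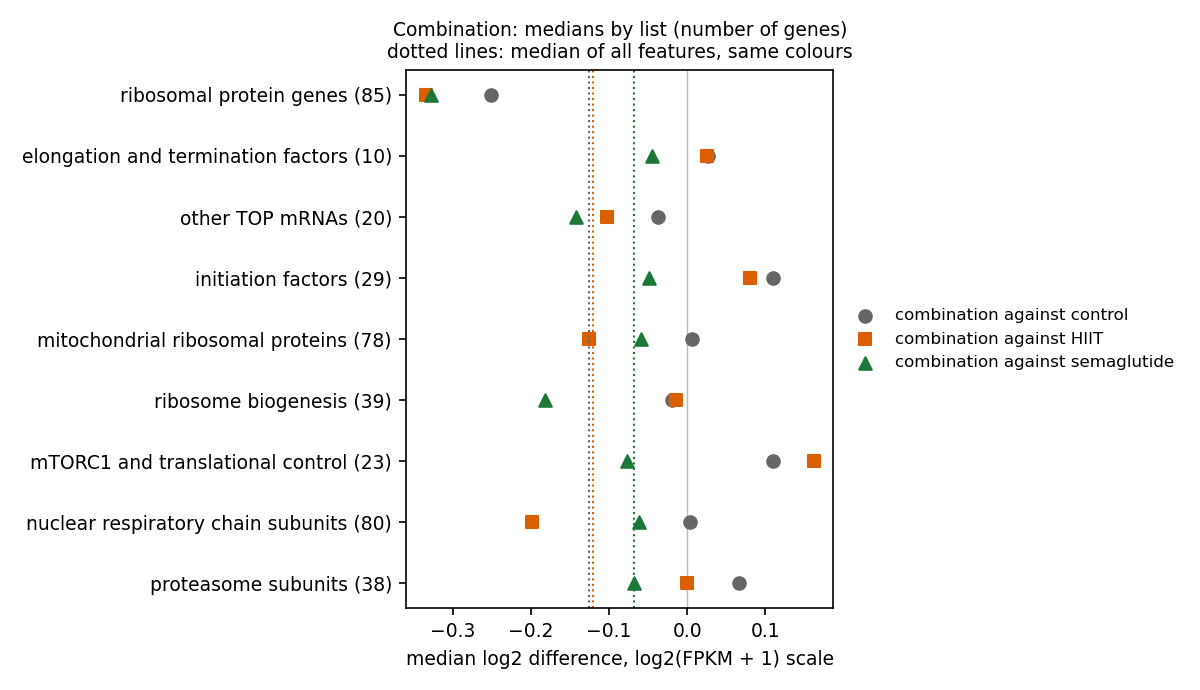
Median log2 difference in FPKM + 1 of the ribosomal protein genes and of the other gene lists for combination against control, against HIIT and against semaglutide, with the median of all features shown beside them. The ribosomal protein genes lie at -0.25, -0.33 and -0.33, and the initiation factors at 0.11, 0.08 and -0.05.

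Markers of other cell types varied between libraries, and their part in the ribosomal protein values was not tested. The 7 white adipocyte markers, all above the filter, summed to 709, 190 and 175 FPKM in combination libraries, 915, 570 and 623 in HIIT, 183, 122 and 408 in semaglutide, and 222, 854 and 339 in control libraries. The 9 macrophage markers, all above the filter, summed to 101, 28.9 and 27.0 FPKM in combination libraries, 175, 34.9 and 177 in HIIT, 23.6, 32.8 and 37.1 in semaglutide, and 46.5, 117 and 36.8 in control libraries. The 6 fibroblast markers, all above the filter, summed to 235, 180 and 154 FPKM in combination, 426, 187 and 350 in HIIT, 176, 166 and 160 in semaglutide, and 260, 272 and 170 in control libraries. Combination 2 and 3, low in ribosomal proteins, were below combination 1 in all 3 sums, and HIIT 2 had the lowest of each sum within its group. Semaglutide 1 and 2 had adipocyte and macrophage sums about as low as combination 2 and 3, with ribosomal protein shares of 2.7 and 2.49%. Control 1, at 2.33% the lowest share of its group, had the lowest adipocyte sum there but not the lowest macrophage or fibroblast sum.

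The 11 liver markers summed to 1.67 to 6.94 FPKM in combination, 6.67 to 371 in HIIT, 1.81 to 7.12 in semaglutide and 191 to 1342 in control libraries. The 5 endothelial markers summed to 44.0 to 47.0 FPKM in combination, 40.0 to 67.1 in HIIT, 45.3 to 50.1 in semaglutide and 61.4 to 65.6 in control libraries. The 5 erythroid markers summed to 214 to 352 FPKM in combination, 274 to 431 in HIIT, 270 to 444 in semaglutide and 202 to 331 in control libraries. The lymphocyte and dividing cell markers summed to less than 1 FPKM in every library, and 1 of the 3 satellite cell markers passed the filter. No marker of these lists was at 0 in all libraries.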

How the data were processed

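For 12 stranded poly(A) libraries, per the labels, the authors deposited 1 FPKM value per feature and library. The aligner STAR 2.7.9a, the read trimmer Trimmomatic 0.36, the counters featureCounts 2.0.1 and StringTie 2.1.4, and build GRCm39 are named in the submitters' processing notes, without saying which made the FPKM. How reads shared between near-identical genes were treated is not given in the sources used here. Depth was estimated from the smallest FPKM steps as 17.2 to 21.3 M fragments per library. The step was sought within a preset range in genes with a single transcript. It rested on 46 to 58 values per library, so the depth is approximate.

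FPKM were used as log2(FPKM + 1), so differences of weak genes are understated. Features with at least 1 FPKM in at least 3 libraries were kept. One mean per group was fitted to all 12 libraries by limma 3.58.1 (R 4.3.3), with empirical Bayes both trended and robust, and p-values were adjusted by Benjamini-Hochberg over all 10666 features, with calls at 0.05. SE are limma's. TMM factors (weighted trimmed mean of log ratios) were computed on FPKM as an alternative scale only. No count test was run. The model was tested on simulated data. Alignments used Biopython 1.88 in Python 3.11.15, with GENCODE M21 and RefSeq sequences of GRCm38. These references gave names and sequences, and the transcript lengths used in the depth estimate, although the submitters name GRCm39. Figures used matplotlib 3.10.9.

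The members and lists were chosen with earlier results of these data known. Genes were named when called in any comparison, among the 5 highest and 5 lowest in combination against control or the interaction, among the 5 most abundant, or on a fixed list. Rpl35 was named as nearest to the members' median difference between combination and control. Rpl17, Rpl36al and Rpl21 are further described where a count or spread singled them out, and Rpl26, Rpl27a, Rpl28 and Rpl35a are named for their calls under the block, all chosen after their values were seen. In combination against HIIT the correlation of deviations was 0.22 to 0.29 in the 3 pairs with the same number, and no label says what a number shares. In no other 2 groups did all 3 pairs with the same number exceed 0.1, and over all 18 such pairs it was -0.23 to 0.29. HIIT 1, 2 and 3 with control 2, 3 and 1, unlike in number, had 0.45, 0.32 and 0.13, so the numbers may not mark a pairing. Alternatives were another pseudocount, other level filters, other scalings, a replicate block, plain empirical Bayes, only the groups compared, and leaving out each library. One gene of the lists is not reported here by itself.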

Additional observations from a re-analysis of the deposited data

How the results depend on the processing

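The limits of these results are few libraries, a scale that moved and copies that may share reads. The combination against HIIT called 2 members, and this count was 1 without a level filter, 4 with a filter of 5 FPKM, 1 after scaling to nuclear genes, and 0 after median centring, when only the 2 groups were fitted, or without both combination 2 and 3. In those 2 groups alone it was 7 with a replicate block, though whether the numbers pair these libraries is not known. Without both combination 2 and 3 the arm has 1 library and limma called 0 of all features against HIIT, so that count says nothing of stability. The test of any difference among the 4 groups called 1 member, against 2 with a pseudocount of 0.1 and 0 without a level filter, after TMM, nuclear or median scaling, with plain empirical Bayes, or without both combination 2 and 3. The replicate block over all 4 groups also gave 0 in that test, and left the count against HIIT at 2.

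The member median between combination and control was -0.075 after median centring. Without both combination 2 and 3 it was -0.030 against control, -0.14 against HIIT, -0.12 against semaglutide and -0.23 for the interaction. Leaving out these libraries, the block in 2 groups alone, summing the copies and dropping unsteady members were chosen after seeing the data. Between combination and control, TMM rescaling reversed Rpl4 (0.00364), Rplp2 (0.10) and Rps27 (0.11), and median centring reversed Rpl4 (0.038), Rps14 (0.025), Rplp2 (0.13), Rps27 (0.15) and Rpl39 (0.020). The interaction of Rps28 became 0.049 under TMM and 0.033 under centring. With nuclear features as the denominator the members' share was 3.31% in combination, 4.08% in HIIT, 4.13% in semaglutide and 3.82% in control libraries, and without mitochondrial and the 50 most abundant features 6.20% in combination, 7.46% in HIIT, 7.52% in semaglutide and 6.96% in control libraries. The cause was not tested.

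Leaving out 1 library gave 0 to 22 calls against control (22 without combination 1, and 1 without HIIT 2), 0 to 45 against HIIT (45 without combination 1, and 15 without HIIT 2), 0 to 24 against semaglutide (24 without combination 1), 0 to 1 for semaglutide against HIIT (1 without HIIT 2) and 0 to 20 in the test of any difference (20 without combination 1, 4 without HIIT 2, 1 without HIIT 1 and 0 without any other). The count against HIIT was 0 without combination 2, combination 3 or HIIT 3, and 1 without HIIT 1, semaglutide 1 or 3, or any control library. Differences from control ran over -0.44 to 1.24 for Rps27rt, -0.12 to 0.21 for Rpl38, -0.10 to 0.18 for Rpl22l1, -0.12 to 0.000565 for Rplp2 and -0.42 to 0.24 for Rps27. Interactions ran over -1.70 to 0.19 for Rps27rt, -0.15 to 0.18 for Rps28 and -0.45 to 0.17 for Rps10. Log2 ratios ran over -0.18 to 0.40 for Rpl22l1 to Rpl22 against semaglutide, -0.40 to 0.17 for Rps27l to Rps27 against control and -0.63 to 0.00737 against HIIT, and -0.11 to 0.27 for Rpl36al to Rpl36a against HIIT.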
